A study of Mus musculus with 10 samples.

Results

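Macrophages and monocytes are phagocytes of the myeloid lineage, and 10 genes that mark them were followed here in cultured splenic B cells: Chil3, Lyz1, Lyz2, Adgre1, Mpeg1, Cd68, Csf1r, Cd14, Fcgr3 and Fcer1g. They were chosen because several of them differed between the genotypes in an earlier reading of these same arrays, so their differences between genotypes are given as a description, with no test. Every probe set whose platform annotation holds one of the 10 symbols was taken, which gave 15 of 45101 probe sets, and the 10 genes stand among 18193 genes that have a probe set with a single symbol. In 7 genes there was 1 probe set, and 1 of the 15 probe sets is shared between Chil3 and its close relative Chil4.

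The study compared Irf4-/- B cells, from mice with both copies of the gene of the transcription factor IRF4 disrupted, with Irf4+/+ B cells from littermates that kept both copies. All mice were C57BL/6 and 12 weeks old. Spleen cells were depleted of non-B cells with magnetic beads, and what remained was grown for 3 days in RPMI medium with 10% fetal serum, IL-4 at 20 ng/ml and an antibody against CD40, whose concentration the labels give as 1 mg/ml. Each genotype has 5 arrays, and since the labels leave unsaid whether these came from separate mice or cultures, p-values cover the spread among these arrays alone, and that spread may be technical. Both genotypes received the same cytokine and antibody, there were no unstimulated samples, and the labels name no tissue to which the disruption is limited, so it is not known to be confined to B cells.

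Macrophages and monocytes depend on the growth factor CSF1 and its receptor CSF1R, and the transcription factor PU.1, made from Spi1, sets up the lineage. They take up and digest microbes and debris in lysosomes, secrete lysozyme, and recognise bacterial products through CD14 with Toll-like receptors and antibody-coated particles through Fc receptors. IL-4 turns mouse macrophages towards a state known for Arg1, Retnla and Chil3. B cells also carry some Fc and Toll-like receptors and digest antigen in lysosomes, so not every gene that macrophages use is absent from them.

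The values are MAS5 signals, linear intensities of 1 probe set on 1 array in arbitrary units. Of all signals on all arrays, the 40th percentile was 26.1, and signals below it are called dim here. A level is comparable between samples for the same probe set, not between probe sets or genes. Log2 differences are Irf4-/- minus Irf4+/+ on log2(signal + 7.9), and a fold is 2 to that power, so a fold between a bright and a dim group depends on the added 7.9.

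Log2 values correlated at 0.978 to 0.985 among arrays of the same genotype and at 0.94 to 0.946 across the genotypes. The label of B cells was checked against a list of 15 markers, of which 14 were tested. Ms4a1, the CD20 gene, averaged 14549 in Irf4-/- samples and 9007 in Irf4+/+ samples. The summed signal of the list was 66080 to 73167 on Irf4-/- arrays and 34678 to 39614 on Irf4+/+ arrays. All 14 were called higher in Irf4-/- samples (limma, adjusted p below 0.05), against 23.2% of all 12246 tested genes. Irf4 itself was still read by its brightest probe set, at 2792 ± 128 in Irf4-/- samples and 3761 ± 211 in Irf4+/+ samples (SD, n = 5 each; log2 difference -0.43, SE 0.0536, limma adjusted p = 4.98e-06). The sources used here do not place that probe set relative to the disruption, so its signal is no check of the labels. The 18S ribosomal RNA control signal, a mean over 3 probe sets, was 91.8 to 203.0 on Irf4-/- arrays and 27.3 to 67.2 on Irf4+/+ arrays. Its part in the results below was not tested. In these bulk samples, fewer cells of a type and less RNA per cell cannot be told apart.

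Of the 10 genes, 8 were higher in every Irf4-/- sample than in any Irf4+/+ sample on their brightest probe set, and the same 8 were at least 2-fold higher in the mean. Among all 12246 tested genes, 17.3% had higher values in Irf4-/- samples with no overlap and 5.27% were at least 2-fold higher. Because the genes were chosen from this contrast, nothing is read from that difference. Csf1r and Cd14 overlapped between the genotypes on their brightest probe set. Of the 15 probe sets, 11 did not overlap and 4 did. Below the 2-fold mark were Cd14, at a log2 difference of 0.44, and Csf1r, at 0.29, and the nearest gene above it was Cd68, at 1.38.

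**Figure D1:**
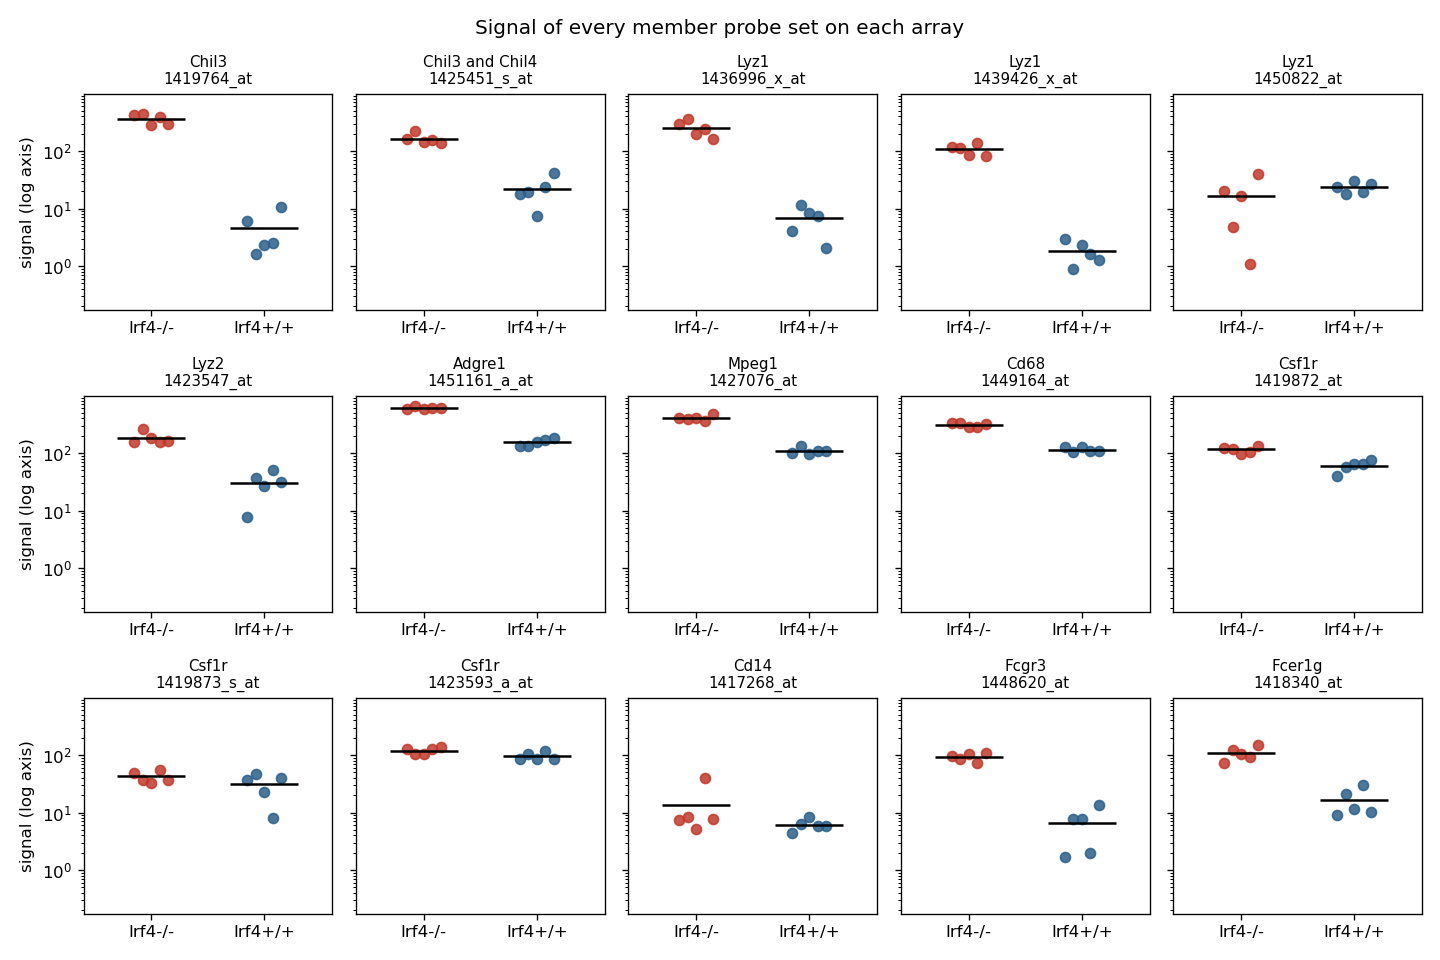
Signal of each of the 15 probe sets on every array, on a log axis, with Irf4-/- samples on the left and Irf4+/+ samples on the right of each panel; points are arrays in replicate order and bars are group means (n = 5 each). In 11 panels the Irf4-/- points all lie above the Irf4+/+ points; the exceptions are a Lyz1 probe set (1450822_at), 2 Csf1r probe sets (1419873_s_at and 1423593_a_at) and Cd14.

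Chil3, a secreted chitinase-like protein that macrophages make in large amounts under IL-4, had the largest log2 difference of the 10 genes at each of the 3 numbers added. Its own probe set 1419764_at read 417.0, 442.0, 278.2, 394.3 and 292.7 on the Irf4-/- arrays, against 6.1, 1.6, 2.3, 2.5 and 10.8 on the Irf4+/+ arrays. All 5 Irf4-/- values were bright and all 5 Irf4+/+ values were dim, with no overlap. The means were 364.8 ± 74.6 in Irf4-/- samples and 4.66 ± 3.85 in Irf4+/+ samples (SD, n = 5 each), a log2 difference of 4.92 or 30.2-fold. Since the Irf4+/+ level is at the bottom of the range of the array, the fold has no firm upper end: it was 75.1 with 1 added to every signal and 10.7 with 32 added.

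Chil4 is the nearest relative of Chil3, and the shared probe set 1425451_s_at cannot tell their transcripts apart. It read 160.9, 219.0, 143.6, 156.0 and 136.4 on the Irf4-/- arrays, against 17.9, 19.1, 7.5, 24.0 and 41.8 on the Irf4+/+ arrays. The groups did not overlap, and the log2 difference was 2.60 or 6.04-fold. A probe set annotated to Chil4 alone, 1425450_at, read 9.5, 33.4, 3.0, 1.7 and 0.9 on the Irf4-/- arrays, against 19.0, 19.5, 9.5, 11.0 and 43.2 on the Irf4+/+ arrays. Those Chil4 values overlapped between the genotypes, and 4 of 5 were dim in each.

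Lyz1 and Lyz2 encode the 2 mouse lysozymes, enzymes that cut the bacterial cell wall; Lyz2 is the form of macrophages and neutrophils and Lyz1 is best known from Paneth cells of the gut. The genes lie side by side on the genome and their promoters are close copies. They are shown because this pair has the most similar start regions among the 7 genes that were compared. The 120 bases before each start site, from RefSeq (GRCm38.p6), are given 5′ to 3′ on the gene's own strand, with the 9 bases at which they differ in capitals. Lyz1 lies at chr10:117292869-117292988 and Lyz2 at chr10:117282273-117282392, both on the minus strand.
Lyz1: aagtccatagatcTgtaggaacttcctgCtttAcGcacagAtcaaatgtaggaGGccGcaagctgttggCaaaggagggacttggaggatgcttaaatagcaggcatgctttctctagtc
Lyz2: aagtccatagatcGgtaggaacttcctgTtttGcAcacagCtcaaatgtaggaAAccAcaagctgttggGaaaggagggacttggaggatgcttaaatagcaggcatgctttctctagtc
Of the 120 bases, 111 are the same in both, or 92.5%. The other 20 pairs among the 7 member genes whose promoters were compared, aligned at the start site without gaps, were 18.3% to 33.3% identical. No such window was found for Adgre1 in the table used, and Csf1r and Cd14 were left out of the comparison.

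The brightest Lyz1 probe set, 1436996_x_at, read 297.6, 357.6, 194.3, 237.2 and 160.5 on the Irf4-/- arrays, against 4.0, 11.6, 8.4, 7.5 and 2.1 on the Irf4+/+ arrays. Every Irf4+/+ array was dim and the groups lay far apart. The means were 249.4 ± 79.2 in Irf4-/- samples and 6.72 ± 3.74 in Irf4+/+ samples, a log2 difference of 4.12 or 17.4-fold, which becomes 34.9-fold with 1 added and 7.07-fold with 32 added. A further Lyz1 probe set, 1439426_x_at, showed the same pattern at 108.1 ± 24.4 in Irf4-/- samples and 1.82 ± 0.835 in Irf4+/+ samples (log2 difference 3.56). Both carry the "x" mark by which the manufacturer flags probes that may cross-hybridise.

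The Lyz1 probe set without that mark did not show it. Probe set 1450822_at read 20.3, 4.7, 16.2, 1.1 and 39.7 on the Irf4-/- arrays, against 23.8, 17.7, 30.6, 19.4 and 27.1 on the Irf4+/+ arrays. The groups overlapped, the level was dim on most arrays, and the log2 difference was -0.60. The 3 Lyz1 probe sets therefore disagree, and whether the marked ones also read Lyz2 was not tested.

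Lyz2 itself has 1 probe set, 1423547_at. It read 152.4, 259.8, 180.3, 152.4 and 160.8 on the Irf4-/- arrays, against 7.8, 36.4, 26.4, 50.8 and 31.0 on the Irf4+/+ arrays. The lowest Irf4-/- value was well above the highest Irf4+/+ value, although the Irf4+/+ arrays differed 6.51-fold among themselves. Lyz2 averaged 181.1 ± 45.4 in Irf4-/- samples and 30.48 ± 15.6 in Irf4+/+ samples, a log2 difference of 2.39 or 5.26-fold, which becomes 6.55-fold with 1 added and 3.45-fold with 32 added.

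Adgre1 encodes F4/80, the adhesion receptor that is the standard surface marker of mouse macrophages. It read 586.1, 661.8, 587.8, 609.4 and 609.6 on the Irf4-/- arrays, against 132.6, 130.9, 157.9, 165.1 and 179.3 on the Irf4+/+ arrays. The spread within either genotype was small beside the gap, with an SD of 0.07 in Irf4-/- samples and 0.19 in Irf4+/+ samples on the log2 scale. Adgre1 averaged 610.9 ± 30.6 in Irf4-/- samples and 153.2 ± 21.0 in Irf4+/+ samples, a log2 difference of 1.95 or 3.87-fold. Unlike Chil3 and Lyz1, the gene was well above the dim level on all 10 arrays, and its fold with 32 added was still 3.49.

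CSF1R, the receptor for CSF1 and IL-34 that keeps macrophages alive, was read by 3 probe sets that differed in what they showed. Probe set 1419872_at read 123.3, 118.5, 97.2, 106.2 and 132.4 on the Irf4-/- arrays, against 39.2, 57.2, 63.2, 63.3 and 76.8 on the Irf4+/+ arrays. Those groups did not overlap, at a log2 difference of 0.88 or 1.84-fold. The brightest, 1423593_a_at, read 125.8, 103.2, 102.2, 125.8 and 137.7 on the Irf4-/- arrays, against 86.6, 102.6, 86.8, 116.5 and 85.3 on the Irf4+/+ arrays, and the groups overlapped (log2 difference 0.29). The third, 1419873_s_at, averaged 42.38 ± 9.71 in Irf4-/- samples and 30.86 ± 15.6 in Irf4+/+ samples and overlapped as well. Csf1r was thus detected in both genotypes, at a gap that depended on the probe set.

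CD14, the co-receptor that hands bacterial lipopolysaccharide to TLR4, was dim throughout apart from 1 array. Its probe set 1417268_at read 7.5, 8.3, 5.2, 39.9 and 7.8 on the Irf4-/- arrays, against 4.4, 6.4, 8.4, 5.8 and 5.8 on the Irf4+/+ arrays. Only Irf4-/- replicate 4 stood above the dim level, and the genotypes otherwise covered the same range. The log2 difference of 0.44 became 0.10 without that array. Cd14 was the 1 gene of the 10 that did not pass the filter on dim probe sets.

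Mpeg1 encodes perforin-2, a pore-forming protein that attacks bacteria inside the phagosome. It read 405.4, 391.2, 408.0, 364.4 and 481.7 on the Irf4-/- arrays, against 99.9, 133.1, 95.9, 107.3 and 106.8 on the Irf4+/+ arrays. The groups were far apart and each was tight. Mpeg1 averaged 410.1 ± 43.6 in Irf4-/- samples and 108.6 ± 14.5 in Irf4+/+ samples, a log2 difference of 1.85 or 3.59-fold.

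CD68, a lysosomal membrane glycoprotein used as a general marker of phagocytes, had a smaller gap. It read 330.7, 329.2, 282.4, 288.4 and 323.5 on the Irf4-/- arrays, against 125.5, 104.8, 127.7, 109.4 and 106.7 on the Irf4+/+ arrays. No value overlapped, and both groups were well above the dim level. Cd68 averaged 310.8 ± 23.5 in Irf4-/- samples and 114.8 ± 10.9 in Irf4+/+ samples, a log2 difference of 1.38 or 2.60-fold.

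Fcgr3 encodes the low-affinity activating IgG receptor Fc gamma RIII, which natural killer cells, monocytes, macrophages and neutrophils use and which needs the adaptor FcR gamma, made from Fcer1g, to reach the surface. Fcgr3 read 97.1, 85.9, 105.6, 73.2 and 108.8 on the Irf4-/- arrays, against 1.7, 7.6, 7.6, 2.0 and 13.6 on the Irf4+/+ arrays. All Irf4+/+ arrays were dim and none overlapped. Fcgr3 averaged 94.12 ± 14.7 in Irf4-/- samples and 6.50 ± 4.90 in Irf4+/+ samples, a log2 difference of 2.88 or 7.36-fold, which becomes 15.3-fold with 1 added and 3.28-fold with 32 added.

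Fcer1g, its partner, read 71.9, 122.4, 103.0, 93.7 and 148.4 on the Irf4-/- arrays, against 9.0, 20.8, 11.4, 29.6 and 10.4 on the Irf4+/+ arrays. The groups did not overlap, and 4 of 5 Irf4+/+ arrays were dim. Fcer1g averaged 107.9 ± 29.0 in Irf4-/- samples and 16.24 ± 8.79 in Irf4+/+ samples, a log2 difference of 2.30 or 4.91-fold, which becomes 6.75-fold with 1 added and 2.89-fold with 32 added.

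The 10 genes thus fell into kinds by their level in Irf4+/+ samples. Chil3, Lyz1, Cd14, Fcgr3 and Fcer1g had Irf4+/+ means under the dim level of 26.1, so their folds move with the number added before the log. Lyz2 was just above it and its fold moved as well. Adgre1, Mpeg1 and Cd68 were well above the dim level in both genotypes, and their folds moved little. The fold of the brightest Csf1r probe set moved little too, but the Csf1r probe sets differed in the gap they showed.

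**Figure D2:**
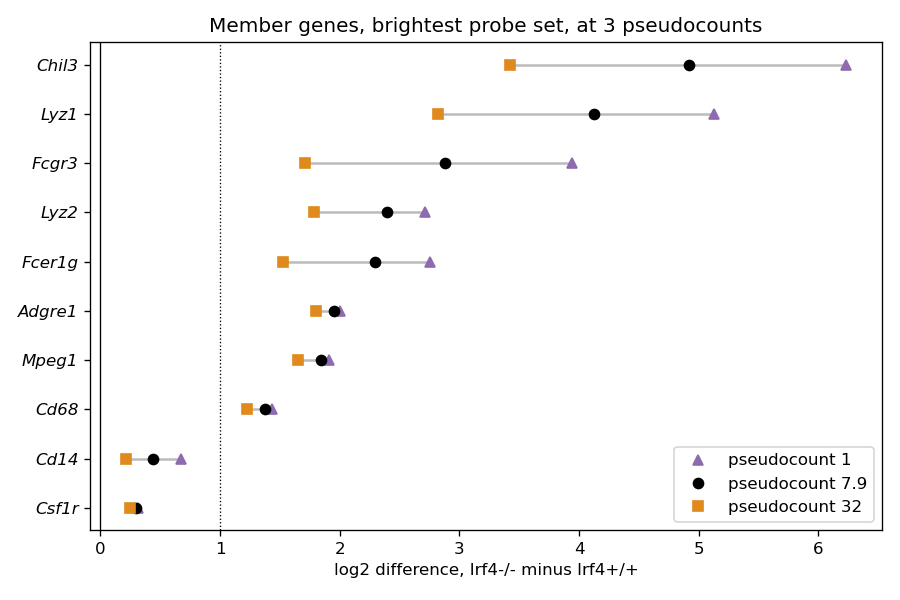
Log2 difference, Irf4-/- minus Irf4+/+, of the brightest probe set of each gene with 1, 7.9 or 32 added to every signal; the dotted line marks a 2-fold difference. The points of Chil3, Lyz1 and Fcgr3 spread widely, those of Adgre1, Mpeg1 and Cd68 lie close together, and 8 genes stay right of the line at each of the 3 settings.

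Within a genotype the genes did not all rank the arrays alike. Among the 9 that passed the filter, Irf4-/- replicate 2 was the highest of its genotype for 4 genes (Chil3, Lyz1, Lyz2 and Adgre1) and Irf4-/- replicate 5 for 4 others (Mpeg1, Csf1r, Fcgr3 and Fcer1g). Cd68 was highest in replicate 1. The median SD of the log2 values of the 10 genes was 0.26 in Irf4-/- samples and 0.29 in Irf4+/+ samples. Over all tested genes it was 0.16 in Irf4-/- samples and 0.17 in Irf4+/+ samples.

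By a rule that took the 5 genes most like the mean standardised profile of those 9 over the 10 arrays, Dpp4, Gm8369, Ms4a6b, Irf1 and Gbp2b were named, with Pearson correlations of 0.9944, 0.9943, 0.9934, 0.993 and 0.9927. Each was higher in Irf4-/- samples. Dpp4, a cell surface peptidase also known as CD26, averaged 584.4 ± 34.0 in Irf4-/- samples and 145.8 ± 26.4 in Irf4+/+ samples. Such values are common here, because the arrays share the gap between genotypes: 193 of the 12237 other tested genes had a correlation of at least 0.98.

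The other macrophage and monocyte genes come from a list of 68, chosen like the others below with earlier results of these arrays known. Of these, 60 had a probe set with that single symbol and 40 passed the filter. That filter takes the mean over all 10 arrays, so a gene dim in Irf4+/+ samples can pass through its Irf4-/- level. Maf, at 133.8 in Irf4-/- samples and 10.38 in Irf4+/+ samples, is such a gene. Counts called higher in this list and those below include such genes. All tested genes passed the same filter. Among the 40, 28 were called higher in Irf4-/- samples, 3 lower and 9 neither way (limma, adjusted p below 0.05), with a median log2 difference of 0.96. Over all 12246 tested genes, 23.2% were called higher and 23.8% lower, 47.1% in all, and the median log2 difference was 0.0043. These shares are the background for each list count below.

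Pld4, a lysosomal nuclease of phagocytes, plasmacytoid dendritic cells and B cells, had the smallest p of the list. It averaged 1451 ± 57.5 in Irf4-/- samples and 111.5 ± 8.44 in Irf4+/+ samples (SD, n = 5 each; log2 difference 3.61, SE 0.0699, limma adjusted p = 1.96e-15). Ms4a7, a membrane protein of macrophages, rose to 638.7 ± 48.2 in Irf4-/- samples, against 47.7 ± 8.13 in Irf4+/+ samples (log2 difference 3.55, limma adjusted p = 2.73e-13). Cfp, properdin of the complement pathway, rose by 2.99 on the log2 scale, Ms4a6c by 2.51, Cybb, the catalytic subunit of the phagocyte oxidase, by 2.14, and Ifi30, a lysosomal thiol reductase used in antigen processing, by 1.13. Probe sets of a gene did not always give the same picture: a further Ms4a6c probe set, above the dim level on all 10 arrays, averaged 292.0 in Irf4-/- samples and 275.4 in Irf4+/+ samples, and a further Cfp probe set differed by 0.42 on the log2 scale, both with overlap. Several of these genes are not particular to macrophages, and B cells are known to express Cybb, Ifi30 and Pld4.

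The genes called lower were Cebpb, Hmox1 and Fn1. Cebpb, a transcription factor of myeloid cells, averaged 122.0 ± 20.9 in Irf4-/- samples and 190.7 ± 49.5 in Irf4+/+ samples (log2 difference -0.59, limma adjusted p = 0.00635). That call was lost when the probe sets of each gene were averaged (log2 difference -0.50, limma adjusted p = 0.0784). The 9 that were called neither way include Fcgr1, Fcgr4, Mrc1, Ccr2 and Cx3cr1. Mrc1, the mannose receptor of tissue macrophages, averaged 32.28 in Irf4-/- samples and 32.48 in Irf4+/+ samples (log2 difference -0.0057, limma adjusted p = 0.988).

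Some markers of resident macrophages were dim in both genotypes. Over all 10 arrays Itgam, the CD11b chain, ranged from 2.4 to 20.4, Marco from 1.3 to 7.0 and Cd163 from 0.6 to 15.7. The complement genes C1qa, at 1.7 to 5.4, and C1qc, at 1.2 to 18.5, and the transcription factor gene Cebpa, at 4.9 to 21.0, were dim as well, as was Timd4. These were the only 7 of the 60 named genes of the list that stayed under 26.1 on every array. Adgre1, Cd68, Mpeg1 and Lyz2 did not. By a wider measure, 20 of the 60 did not pass the filter. Among these 20, C1qb, Vsig4, Apoe, Mertk, Siglec1, Cd5l and Clec4f had dim means in both genotypes, with overlap. Clec4d, also among the 20, did not overlap, at 48.66 in Irf4-/- samples and 9.0 in Irf4+/+ samples. Beside these 20 stand the 28 genes of the list called higher. Among them, Clec7a averaged 215.2 ± 30.9 in Irf4-/- samples and 19.88 ± 15.2 in Irf4+/+ samples. Maf averaged 133.8 ± 14.8 in Irf4-/- samples and 10.38 ± 7.34 in Irf4+/+ samples. The label of macrophage and monocyte genes is therefore used here for the genes by their known use, and not for cells shown to be present.

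**Figure D3:**
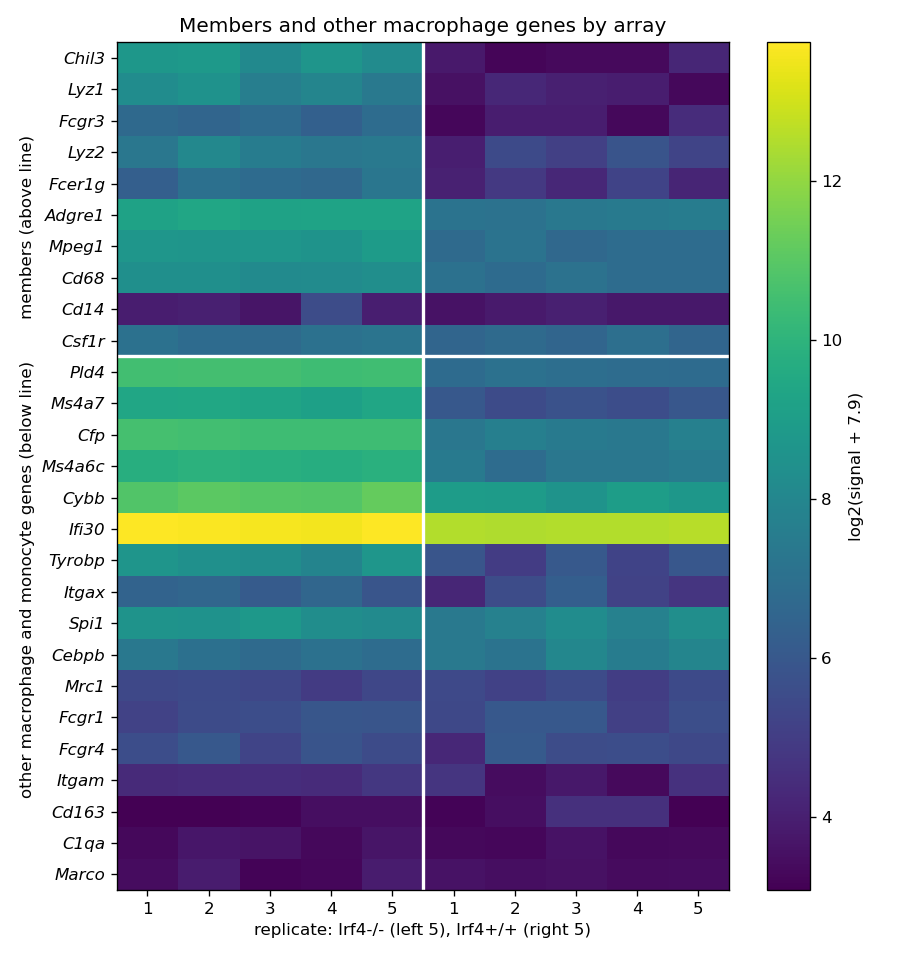
Log2(signal + 7.9) of the 10 genes (above the line) and of 17 other macrophage and monocyte genes (below it) on each array, with the 5 Irf4-/- arrays on the left and the 5 Irf4+/+ arrays on the right. Pld4, Ms4a7, Cfp and Ms4a6c are brighter on all Irf4-/- arrays, whereas Mrc1, Fcgr1 and Fcgr4 do not separate the genotypes and Itgam, Cd163, C1qa and Marco are dark on all 10 arrays.

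CSF1R signalling and the factors that direct the lineage gave 9 called higher, 1 lower and 1 neither way among 11 tested of 14 listed, with a median log2 difference of 0.42. Csf1, the ligand, averaged 1160 ± 27.0 in Irf4-/- samples and 885.8 ± 95.9 in Irf4+/+ samples (log2 difference 0.39, limma adjusted p = 0.000149). Its other ligand gene, Il34, was dim. Irf8, a relative of Irf4 that both B cells and macrophages use, rose to 7087 ± 340 in Irf4-/- samples, against 3278 ± 143 in Irf4+/+ samples (log2 difference 1.11, limma adjusted p = 3.07e-11). Spi1 averaged 348.4 ± 54.3 in Irf4-/- samples and 239.7 ± 66.5 in Irf4+/+ samples (log2 difference 0.55, limma adjusted p = 0.00839), and its groups overlapped. Fos was the gene called lower.

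Around CD14, the Toll-like receptor list gave 7 called higher, 2 lower and 2 neither way among 11 tested of 14, at a median of 0.76. Tlr1 rose to 847.0 ± 13.6 in Irf4-/- samples, against 236.7 ± 27.1 in Irf4+/+ samples (log2 difference 1.81, limma adjusted p = 1.40e-11). Tlr4, the receptor CD14 serves, rose by 0.97 on the log2 scale (limma adjusted p = 1.98e-05), and Cd180, a relative found on B cells, by 1.57. Tirap, the adaptor that joins TLR2 and TLR4 to MyD88, fell to 153.6 ± 7.85 in Irf4-/- samples, against 361.0 ± 45.8 in Irf4+/+ samples (log2 difference -1.18), and Traf6 was the other gene called lower. A further, dimmer Tirap probe set differed by -0.64 on the log2 scale, with overlap.

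The Fc receptors and their adaptors gave 4 called higher, 1 lower and 6 neither way among 11 tested of 15, at a median of 0.26. Over all tested genes 23.2% were called higher and 23.8% lower, so the number called here is near the background. Tyrobp, which encodes the adaptor DAP12 and serves receptors of natural killer and myeloid cells, read 390.5, 338.7, 311.1, 233.1 and 407.2 on the Irf4-/- arrays, against 52.3, 23.5, 59.8, 29.7 and 55.2 on the Irf4+/+ arrays. The groups did not overlap (log2 difference 2.77, SE 0.21, limma adjusted p = 1.57e-08). Fcgrt, the neonatal Fc receptor chain, rose by 2.69 on the log2 scale, Syk, the kinase that these adaptors engage, by 1.01, and Fcer2a, the IgE receptor CD23 of B cells, by 0.90. Fcgr2b, the inhibitory IgG receptor of B cells, was not called, at 385.3 ± 36.8 in Irf4-/- samples and 352.1 ± 36.1 in Irf4+/+ samples (log2 difference 0.13, limma adjusted p = 0.258). The macrophage IgG receptor genes Fcgr1 and Fcgr4 were not called either, at log2 differences of -0.0071 and 0.26.

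Pore-forming and lysosomal genes gave 10 called higher, none lower and 4 neither way among 14 tested of 18, at a median of 0.57. Gzmb, which encodes granzyme B, rose to 4868 ± 533 in Irf4-/- samples, against 362.0 ± 51.6 in Irf4+/+ samples (log2 difference 3.72, limma adjusted p = 3.26e-14). Prf1, the perforin of killer cells and a relative of Mpeg1, rose by 2.30 on the log2 scale, the lysosomal protease gene Lgmn by 1.89 and Ctss, cathepsin S of antigen-presenting cells, by 0.92. A further Prf1 probe set differed by 0.41, with overlap. Of the lysozyme and chitinase-like relatives of Lyz1, Lyz2 and Chil3, 6 of 8 did not pass the filter and the other 2, Ctbs and Chid1, were not called.

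Genes that IL-4 turns on in macrophages gave 10 called higher, 1 lower and 4 neither way among 15 tested of 22, at a median of 0.63. Ccl17, a chemokine that recruits T cells, rose to 253.2 ± 64.1 in Irf4-/- samples, against 17.62 ± 14.0 in Irf4+/+ samples (log2 difference 3.49, limma adjusted p = 5.20e-08). Its Irf4+/+ mean was dim, and its log2 difference was 4.08 with 1 added and 2.54 with 32 added. Socs1, an inhibitor of cytokine signalling, rose by 1.82 and Cdh1, E-cadherin, by 2.25, while Egr2 was the gene called lower. Arg1 and Retnla, which are named beside Chil3 as signs of the IL-4 state of macrophages, were dim on all arrays or nearly so: Arg1 ranged from 1.3 to 15.8 and Retnla from 4.2 to 27.5.

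**Figure D4:**
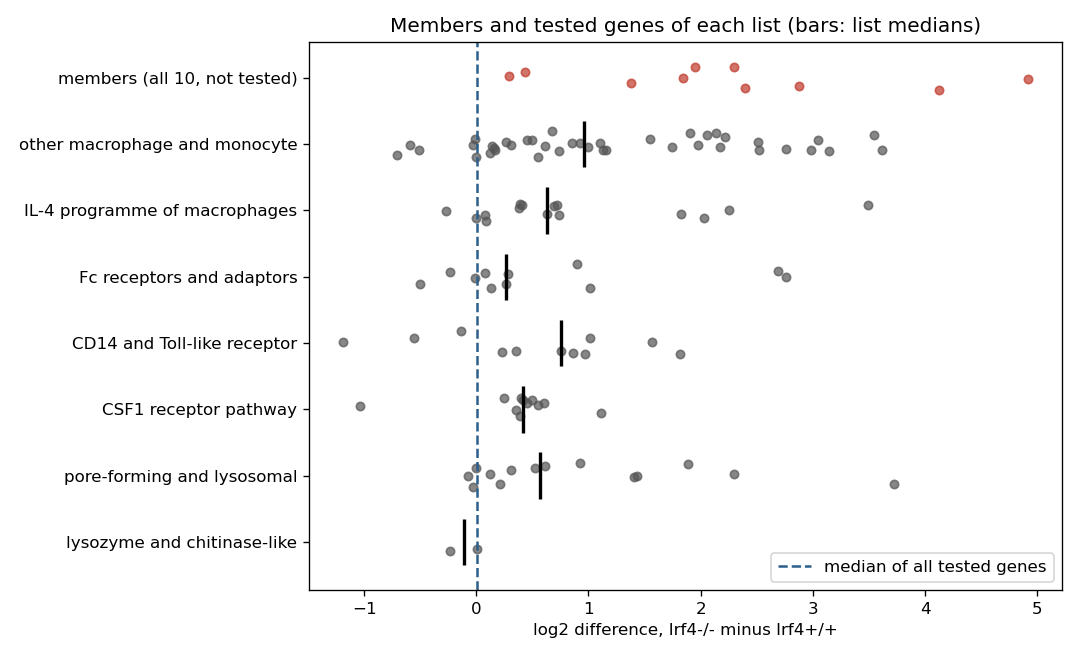
Log2 difference, Irf4-/- minus Irf4+/+, of the 10 genes (top row, all shown, not tested) and of the tested genes of each list; black bars are list medians and the dashed line is the median of all tested genes, 0.0043. Among the 7 lists drawn here the medians run from -0.11 for the lysozyme and chitinase-like genes to 0.96 for the other macrophage and monocyte genes.

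Markers of other cells also differed between the genotypes. All 15 tested natural killer cell markers, of 18 listed, were called higher, at a median log2 difference of 2.0, with a summed signal of 12195 to 16642 on Irf4-/- arrays and 1447.2 to 1741.9 on Irf4+/+ arrays. Gzma and Gzmb make up most of that sum, and Klrd1, a receptor gene of these cells, averaged 178.1 in Irf4-/- samples and 22.8 in Irf4+/+ samples (log2 difference 2.63, limma adjusted p = 1.40e-08). Some of these markers passed the filter through their Irf4-/- level, such as Tbx21, at 103.1 in Irf4-/- samples and 9.7 in Irf4+/+ samples. Natural killer cells also use Fcgr3, Fcer1g and Tyrobp.

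Granulocyte markers gave 4 called higher and 3 neither way among 7 tested of 21, at a median of 0.78, and 12 did not pass the filter. Of these 12, Mmp8 averaged 32.76 ± 7.01 in Irf4-/- samples and 5.26 ± 1.61 in Irf4+/+ samples with no overlap, Ltf averaged 35.46 ± 13.2 in Irf4-/- samples and 7.74 ± 8.38 in Irf4+/+ samples with overlap, and Ctsg was dim on all 10 arrays. The summed signal of the list was 850.7 to 1350.3 on Irf4-/- arrays and 237.5 to 406.5 on Irf4+/+ arrays. S100a8, which neutrophils and monocytes share, rose to 266.9 ± 67.2 in Irf4-/- samples, against 18.34 ± 7.87 in Irf4+/+ samples (limma adjusted p = 1.01e-09). Its partner S100a9 rose to 203.2 ± 62.6 in Irf4-/- samples, against 6.56 ± 5.02 in Irf4+/+ samples (limma adjusted p = 4.48e-09). Ngp, of the same list, rose to 236.3 ± 56.8 in Irf4-/- samples, against 48.02 ± 10.3 in Irf4+/+ samples, with no overlap (limma adjusted p = 2.94e-08). Mmp9 was called higher too, with overlap (limma adjusted p = 0.0474). Lyz2 is also a gene of neutrophils.

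Dendritic cell markers went both ways, with 3 called higher, 3 lower and 3 neither way among 9 tested of 14 at a median of 0.14, and summed to 2254.8 to 2371.6 on Irf4-/- arrays and 2416.2 to 2682.2 on Irf4+/+ arrays. Flt3, a growth factor receptor of dendritic cells and their progenitors, fell to 53.18 ± 15.6 in Irf4-/- samples, against 417.3 ± 29.7 in Irf4+/+ samples (log2 difference -2.84, limma adjusted p = 1.92e-10), and Batf3, a transcription factor of one dendritic lineage, fell by 0.63 on the log2 scale (limma adjusted p = 0.000421). Tcf4 was the other gene called lower and made up much of the dendritic sum. It averaged 958.3 ± 45.7 in Irf4-/- samples and 1133 ± 92.8 in Irf4+/+ samples, with overlap (log2 difference -0.24, limma adjusted p = 0.00604). Sirpa, a receptor of myeloid cells that is also on the macrophage list, rose to 308.4 ± 22.3 in Irf4-/- samples, against 47.58 ± 7.62 in Irf4+/+ samples (log2 difference 2.52, limma adjusted p = 5.88e-11). Itgax, the CD11c chain of dendritic cells and some macrophages, averaged 75.16 ± 17.3 in Irf4-/- samples and 33.28 ± 22.8 in Irf4+/+ samples (log2 difference 1.16, limma adjusted p = 0.00603), and its groups overlapped. T cell markers gave 2 called higher (Thy1 and Cd5), 1 lower (Cd28) and 4 neither way among 7 tested of 17 at a median of -0.068, and Cd3e, Cd3d and Cd4 were dim on all 10 arrays. Their sum, 4864.4 to 5953.1 on Irf4-/- arrays and 1343.8 to 1851.3 on Irf4+/+ arrays, was mostly Thy1. Erythroid and platelet markers had 3 tested of 10, none called in limma, and overlapping sums of 144.9 to 310.3 on Irf4-/- arrays and 170.0 to 295.2 on Irf4+/+ arrays. The part of natural killer, granulocyte, dendritic and T cell RNA in the levels of the 10 genes was not tested.

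**Figure D5:**
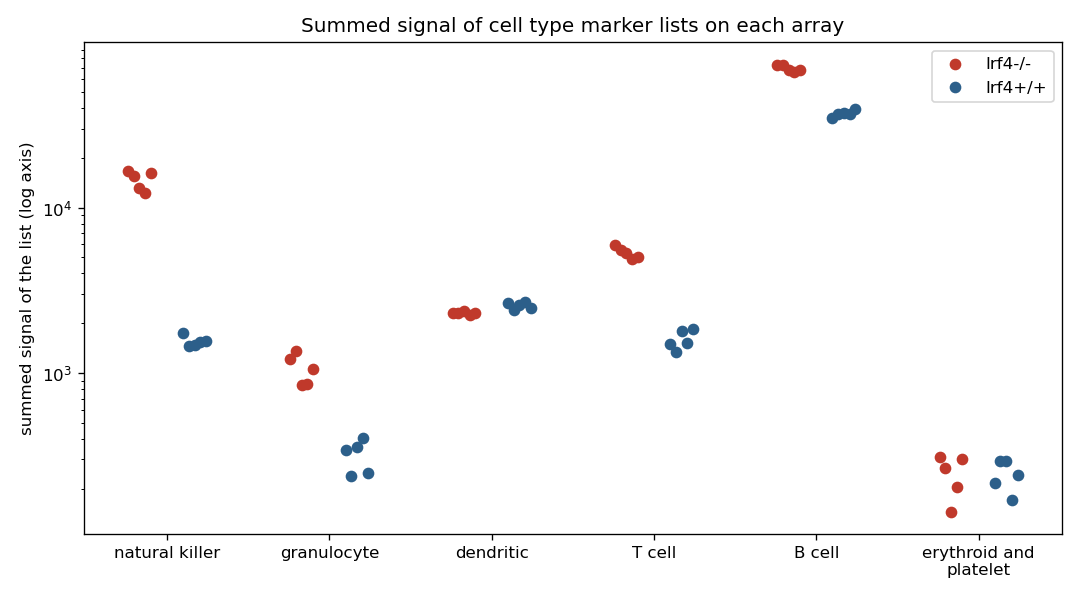
Summed signal of each cell type marker list on every array, on a log axis, with Irf4-/- arrays left of Irf4+/+ arrays (n = 5 each). The natural killer, granulocyte, T cell and B cell sums of the Irf4-/- arrays lie above all Irf4+/+ sums, the dendritic sums lie below them, and the erythroid and platelet sums overlap.

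The promoters were searched for short motifs of factors that act in myeloid cells or below IL-4. Windows of 300 bases, 250 before and 50 after the start site, were read for 7 of the 10 genes on both strands, among 32851 such windows of all genes. GAGGAA, the core that PU.1 and other ETS factors bind, was found in Fcgr3 and Cd68 and in 28.3% of all windows. Fcgr3 has a further annotated start site, from which the same GAGGAA lies at -15. The stretches that hold it are shown because PU.1 is known to drive many myeloid genes, with the motif in capitals: Fcgr3 at chr1:171059404-171059463, where it reads on the opposite strand 6 bases before the start site used, and Cd68 at chr11:69666361-69666420, both on the minus strand (GRCm38.p6).
Fcgr3: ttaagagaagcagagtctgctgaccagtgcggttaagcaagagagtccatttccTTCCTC
Cd68: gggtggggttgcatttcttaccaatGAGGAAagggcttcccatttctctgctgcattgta
GGAA followed after any 2 bases by GAAA, the composite at which PU.1 and IRF4 or IRF8 can bind together, was found in 1 of the 7 genes, Cd68, and in 2.72% of all windows. It lies just after the start site at chr11:69666129-69666153, on the strand opposite to the gene, and overlaps a further GAGGAA; the composite is in capitals.
Cd68: gaggctTTTCATTTCCtcttccaag
TTGCNNAA, a C/EBP form, was found in Fcgr3, Lyz1 and Cd68 and in 10.8% of all windows. GAAA followed after any 2 bases by GAAA, an IRF form, is in 3.44% of all windows. TTC followed after any 4 bases by GAA, a form that STAT6 prefers, is in 6.95%. Neither was found in the windows of these 7 genes. A match is a description of the letters, not a bound site, and binding was not measured in the samples analysed here.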

How the data were processed

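Signals of 45101 probe sets on 1-colour Affymetrix 3′ arrays were deposited as linear intensity values. Per the submitters' processing notes the tool was MAS5, of a version not given in the sources used here. The mean after removing 2% of values at each end was 250 on every array, so no further scaling was applied. Platform symbols were updated through RefSeq gene IDs (GRCm38.p6), which matched 34741 of 34945 probe sets with 1 symbol; 932 had several symbols, 9160 are unnamed here and 64 are controls.

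Values were taken as log2(signal + 7.9), 7.9 being the 20th percentile of all values. Probe sets with a mean log2 under the 40th percentile (4.94, a signal of 22.75) were left out, and each gene was read by its probe set with the highest mean. Genotype was fitted in limma 3.58.1 (R 4.3.3; lmFit, eBayes with trend) to 12246 genes, with Benjamini-Hochberg adjustment and calls at adjusted p below 0.05; this called 5764 genes. The script was tested on simulated data. Precision is limited by the number of arrays, which have no read depth.

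The 10 genes and all lists were chosen with earlier results of these data known. Of each list, the genes with the smallest p among the called and the highest mean among the not called were named. Defining markers were named too. Traf6, Fos, Egr2, Hmox1, Fn1, Thy1, Cd5, Cd28, Mmp8, Ltf, Ctsg, C1qc, Timd4, Clec7a and Maf were named after their values were seen. C1qb, Vsig4, Apoe, Mertk, Siglec1, Cd5l, Clec4f and Clec4d were also named after their values were seen. So were the genes beside the 10 on the chromosome. Alternatives were the number added, the filter, quantile or median scaling, the choice of probe set, the variance trend, a replicate block and leaving out each array. Replicate numbers do not pair the samples: deviations of same-numbered arrays correlated at -0.0341 to 0.0542.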

Additional observations from a re-analysis of the deposited data

Results flagged for a closer look

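In 5 of 128 groups of 5 samples, 1 array lay far from the other 4, with a gap over 0.71 of the group's range; chance flags about 1 in 20 such groups. Cd14 read 39.9 on Irf4-/- replicate 4, against 5.2 to 8.3 on the other Irf4-/- arrays, and its log2 difference of 0.44 rests on that array. Mrc1, the mannose receptor gene, read 22.8 on the same array, against 33.5 to 37.3 on the others. Ctss read 4535 on Irf4+/+ replicate 1, against 3898 to 3989 on the other Irf4+/+ arrays. Irf1 read 771.8 on Irf4+/+ replicate 1, against 817.6 to 834.4 on the others. Batf3 read 266.7 on Irf4-/- replicate 1, against 160.7 to 184.0 on the other Irf4-/- arrays, and was called lower with each array left out.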

How the results depend on the processing

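The number of genes at least 2-fold higher among the 10 was 8 except in these settings: it was 4 with a filter at the 60th percentile, which removes dim genes, and 7 without "x" and "s" probe sets. It was 8 with each array left out. The number of calls over all genes ranged from 5396 to 5665 with 1 array left out, from 5399 to 5796 under the other alternatives and was 5764 in the fit reported, with all arrays. Of the other macrophage genes, 28 were called higher in that fit, 27 to 29 with 1 array left out, 20 with the filter at the 60th percentile, 26 without "x" and "s" probe sets and 27 to 29 under the rest. Without "x" and "s" probe sets the log2 difference of Lyz1 was -0.60, since its remaining probe set was 1450822_at. Cebpb was no longer called with the mean of its probe sets (-0.50, limma adjusted p = 0.0784). With 1 array left out, differences near 0 changed sign: Mrc1 ranged from -0.079 to 0.088, Fcgr1 from -0.14 to 0.10 and Fcgr4 from -0.0097 to 0.45, none of them called. Of 971 values of 49 further genes under the alternatives, 961 kept direction and call. With the replicate number as a block, though the numbers do not pair the samples, 5677 genes were called, 27 of the other macrophage genes higher, and 8 of the 10 genes were at least 2-fold higher. Dim signals limit Chil3, Lyz1, Lyz2, Fcgr3, Fcer1g and Cd14: their folds depend on the number added. Differences of other genes dim in Irf4+/+ samples, such as Ccl17, S100a8, S100a9 and Klrd1, depend on it as well.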

Other observations

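The genes beside each of the 10 on the chromosome, taken as the nearest tested gene on either side in RefSeq order, were looked at after the other values were seen. Of 18 such neighbours outside the 10, 4 were called higher in Irf4-/- samples, 3 lower and 11 neither way (limma), against 23.2% and 23.8% of all tested genes. Distances along the chromosome were not measured. The nearest tested genes around Adgre1 were Vav1 and Efna5, both called higher. Efna5, a membrane-bound ephrin ligand, averaged 125.7 ± 15.7 in Irf4-/- samples and 46.26 ± 16.9 in Irf4+/+ samples (log2 difference 1.36, limma adjusted p = 3.94e-05). Vav1 averaged 646.3 ± 143 in Irf4-/- samples and 417.2 ± 59.7 in Irf4+/+ samples, with overlap (log2 difference 0.60, limma adjusted p = 0.00154). Next to Lyz2, Yeats4, a subunit of chromatin complexes, differed by 0.32, and Cpsf6 beside Lyz1, an RNA processing factor, fell by 0.21 on the log2 scale. Next to Cd68, Eif4a1, a translation factor, fell to 8067 ± 265 in Irf4-/- samples, against 10518 ± 270 in Irf4+/+ samples. The neighbours of Chil3, Ovgp1 and Dennd2d, and of Mpeg1, Osbp and Dtx4, were not called.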
